A study of Mus musculus with 12 samples.

Results

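Fc gamma receptors bind the constant part of IgG antibodies, and complement C1q and the anaphylatoxin receptors tie the same cells to the complement cascade. The set described here has 10 genes of the mouse, chosen by name: the IgG receptors *Fcgr1*, *Fcgr2b*, *Fcgr3* and *Fcgr4*, their signalling chain *Fcer1g*, the C1q subunits *C1qa*, *C1qb* and *C1qc*, and the receptors *C3ar1* and *C5ar1*. All 10 were among the 13232 genes measured. RNA was measured in bone marrow-derived macrophages, cells grown from marrow with the growth factor M-CSF, taken from wild-type C57B6/J mice on a high-fat diet (HFD) or on a normal one (ND). Every culture used here received 20 ng/ml of M-CSF in medium with 10% serum, penicillin and streptomycin, was moved to serum-free medium with the same M-CSF on day 4, and spent 1 h at 1% oxygen on day 7. The labels describe 12 libraries in 4 groups, and the 6 hypoxia libraries, 3 of each diet, form the 2 groups compared. The 6 libraries kept at normal oxygen are not analysed here, so each difference is one of diet under hypoxia and none is a response to oxygen. The labels give no age, sex or length of feeding, and do not say whether each library came from a mouse of its own, so p-values measure only the spread between these libraries. The column heads carry the same digit after the diet letters in every library used here, and the labels do not explain it.

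Macrophages use *Fcgr1*, *Fcgr3* and *Fcgr4* to take up and respond to antibody-coated particles. These receptors signal through the FcR gamma chain encoded by *Fcer1g*, which carries an activation motif in its cytoplasmic tail and is needed for their display at the surface. *Fcgr2b* encodes the inhibitory IgG receptor, whose inhibitory motif recruits the phosphatase SHIP1, so the balance of activating and inhibitory receptors sets the threshold of the response. C1q, assembled from A, B and C chains, recognises antibody complexes and dying cells, and in mice macrophages are a main source of it. C3aR and C5aR1 are G protein-coupled receptors for the anaphylatoxins C3a and C5a.

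Levels below are the authors' gene counts scaled by a size factor per library, called normalized levels, and where 3 values are given for a diet they stand in the order of its replicates 1 to 3. Estimated depths were about 19046400 to 22805200 reads in ND and 23017000 to 24491500 in HFD, so every HFD library was deeper than every ND library before scaling. All 8 macrophage markers (*Adgre1*, *Csf1r*, *Cd68*, *Mertk*, *Cd14*, *Lyz2*, *Mrc1*, *Itgam*) were measured, with a summed level of 363242 to 416841 in ND and 360682 to 420927 in HFD, mostly from *Lyz2*. By sign 3 were higher and 5 lower in HFD, and *Adgre1* (log2 fold change 0.16, limma adjusted p 0.520) and *Cd14* (-0.29, adjusted p 0.281) did not overlap between the diets. No listed T, NK or dendritic cell marker was in the table. Neutrophils, which also carry these receptors, were represented by 6 of 10 markers, without *Ly6g*, *Mpo*, *Elane* and *Camp*, and their summed level was 1712 to 2455 in ND and 2109 to 3430 in HFD. All 6 were higher in HFD by sign, and *Mmp8* alone did not overlap, at 443, 463 and 452 under ND and 707, 1032 and 834 under HFD (log2 fold change 0.90, limma adjusted p 0.113). It was also the 1 neutrophil marker that passed without ND replicate 3 and with array weights, where the list's median was 0.16 and 0.59, against 0.30 with all libraries. For the other neutrophil markers HFD replicate 3 lay inside or below the ND range. With 1 library left out *S100a9* ran from -0.09 to 0.38 and *Ltf* from -0.13 to 0.30. Of 6 monocyte markers 4 were measured, 3 higher and 1 lower by sign, with a summed level of 1303 to 1365 in ND and 1245 to 1474 in HFD. Of 7 mast cell and basophil markers only *Kit* was measured, at 117 to 226 in ND and 72.4 to 104 in HFD. Of 7 stromal markers 3 were measured, all lower by sign (median -1.33, but -0.48 with array weights, and -1.96 to -0.64 for *Col1a1* with 1 library left out), with a summed level of 177 to 549 in ND and 51.8 to 337 in HFD. *Cd14* and *Kit*, both lower in HFD, passed with array weights and not without ND replicate 3. The part of such cells in the results below was not tested. On the first principal component of 10794 genes with a mean of at least 100, ND replicates 1 and 2 scored -14.0 and -13.5 and the HFD replicates 1.33, 11.3 and 11.4. ND replicate 3 scored 3.43, inside the HFD range, so results that rest on it are given with and without it.

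The IgG receptor family held the largest diet difference of the set, a lower level of the inhibitory receptor gene *Fcgr2b* in HFD, but no member passed an adjusted p of 0.05 (limma with Benjamini-Hochberg adjustment over 13232 genes). Of the 10 members 6 were higher and 4 lower in HFD by the sign of the fold change (48.9% of all genes were higher), and the diets overlapped for all 10. Across all genes 0 were called at that threshold (0%), 1401 had an unadjusted limma p under 0.05 (10.6%) and 1921 showed no overlap of the diets (14.5%, 7.44% higher and 7.07% lower in HFD). *Fcgr2b* was the only member with an unadjusted p under 0.05, which is 1 of 10 against that 10.6%. The median absolute log2 fold change was 0.077 over the members and 0.092 over all genes.

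**Figure D1:**
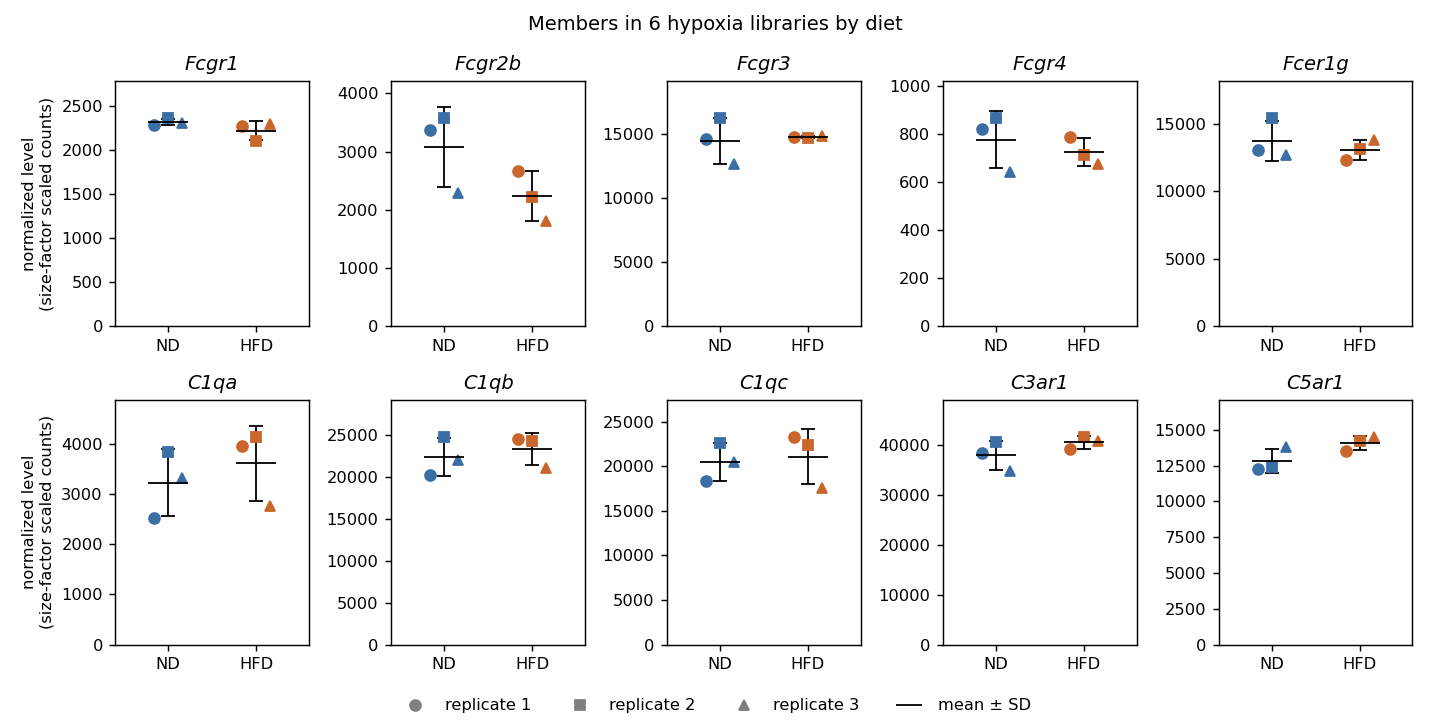
Normalized levels (size-factor scaled counts, vertical axes from 0) of the 10 members in 3 ND and 3 HFD libraries. Symbols mark the replicate, horizontal bars the mean and error bars the SD. *Fcgr2b* is lower in HFD on average, with ND replicate 3 at 2286 inside the HFD range, and in every other panel the diets overlap as well.

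*Fcgr2b* (ENSMUSG00000026656.15, chr1:170958617-170976547, minus strand, GRCm38) stood at normalized levels of 3369, 3572 and 2286 under ND and at 2666, 2221 and 1809 under HFD. ND replicates 1 and 2 lay above every HFD library, while ND replicate 3 lay below HFD replicate 1. The ND mean was 3076 ± 691 and the HFD mean 2232 ± 428 (SD over 3 libraries, n = 3). The log2 fold change was -0.45 (SE 0.17, 95% interval -0.84 to -0.06), equal to 0.730 times the ND level, with an unadjusted p of 0.0275 and a limma adjusted p of 0.404. By p it ranked 897 of 13232 genes, and 4.46% of genes had a larger absolute fold change. Its spread within a diet was also wide, with an SD of log2 values of 0.32 that only 8.07% of genes exceeded, while counting error was 1.94% of the level. Without ND replicate 3 the log2 fold change was -0.65 and the limma adjusted p 0.0504, just above the threshold, in a fit that called 1.76% of all genes (1.22% higher and 0.537% lower in HFD). With limma array weights, which weighted ND replicates 1 to 3 by 1.91, 0.891 and 0.441 and HFD replicates by 0.778, 3.09 and 0.556, it was -0.54 and passed (adjusted p 0.0241), where 8.56% of all genes passed (4.54% higher and 4.02% lower). The limma adjusted p lay between 0.0241 and 0.945 over the 15 alternatives, and in each the level was lower in HFD.

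Of 1733 distinct 75-base stretches of the annotated *Fcgr3* transcripts, 94 (5.42%) also occur in *Fcgr2b* transcripts, and 2.70% of the stretches of *Fcgr2b* occur in another gene. A part of the reads of these neighbours could therefore be shared between them, depending on the counting step, which is not given in the sources used here. The antisense gene *Gm38204* overlaps *Fcgr2b* on the opposite strand, and although the libraries are stranded it is not stated whether the counting used strand. *Fcgr2b* is also a B cell gene. Of 6 B cell markers only *Ighm* was in the table, at 3061, 2891 and 1889 under ND and 2075, 1876 and 1886 under HFD, and the others, *Cd79a*, *Cd79b*, *Ms4a1* and *Pax5* among them, were not in the table. Like *Fcgr2b*, *Ighm* was highest in ND replicates 1 and 2, and without ND replicate 3 it passed the limma threshold, with a log2 fold change of -0.61. It passed with array weights as well (-0.56), the fit in which *Fcgr2b* passed. The collagen genes *Col1a1*, *Col1a2* and *Col3a1*, the stromal markers measured, were like *Fcgr2b* highest in ND replicate 2 and lowest in HFD replicate 3. In HFD replicate 2, where *Fcgr2b* was below every ND library, they stood at 135, 138 and 63.7. That was above ND replicate 3 (87.4, 69.7 and 20.4), and for *Col1a2* and *Col3a1* above ND replicate 1 (124 and 38.9). The part of B-lineage or stromal cells in the result was not tested, and in bulk RNA fewer cells of a type and less RNA per cell cannot be told apart.

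*Fcgr1* (ENSMUSG00000015947.10, chr3:96282909-96293969, minus strand) encodes the high-affinity IgG receptor. Its normalized levels were 2285, 2356 and 2300 under ND against 2264, 2095 and 2293 under HFD. It was the steadiest member, with an SD of log2 values within a diet of 0.05 that 91.4% of genes exceeded. The diets overlapped through a single library, HFD replicate 3, which lay between ND replicates 1 and 3. The log2 fold change was -0.06 (SE 0.06, 95% interval -0.20 to 0.07, limma adjusted p 0.766), and it was -0.02 without HFD replicate 2.

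*Fcgr3* (ENSMUSG00000059498.13, chr1:171051174-171064935, minus strand), the low-affinity activating receptor, had normalized levels of 14579, 16217 and 12639 in ND and 14779, 14711 and 14827 in HFD. The HFD libraries lay within 1 narrow band inside the ND range, with an SD of 58.1 against 1791 in ND. The log2 fold change was 0.04 (SE 0.09, 95% interval -0.16 to 0.24, limma adjusted p 0.915), and without ND replicate 3 or after quantile normalization its sign turned (-0.06 and -0.004).

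*Fcgr4* (ENSMUSG00000059089.4, chr1:171018920-171029761, plus strand), an activating receptor of intermediate affinity that lies between *Fcgr2b* and *Fcgr3* on the chromosome, was the least abundant member. It stood at 823, 866 and 641 in ND and 788, 713 and 675 in HFD. As for *Fcgr2b*, ND replicates 1 and 2 were the highest libraries, and ND replicate 3 was here the lowest of all. The log2 fold change was -0.09 (SE 0.11, 95% interval -0.35 to 0.17, limma adjusted p 0.830), and the value depended on single libraries. It was -0.22 without ND replicate 3 (limma adjusted p 0.228), but -0.04 without ND replicate 1 or HFD replicate 3 and -0.005 without ND replicate 2.

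*Fcer1g* (ENSMUSG00000058715.11, chr1:171229572-171234365, minus strand), the shared gamma chain, had normalized levels of 13051, 15430 and 12704 in ND and 12341, 13169 and 13799 in HFD. The values were interleaved between the diets. The log2 fold change was -0.06 (SE 0.09, 95% interval -0.26 to 0.13, limma adjusted p 0.843), and with 1 library left out it lay between -0.12, lacking ND replicate 3, and 0.02, lacking ND replicate 2.

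**Figure D2:**
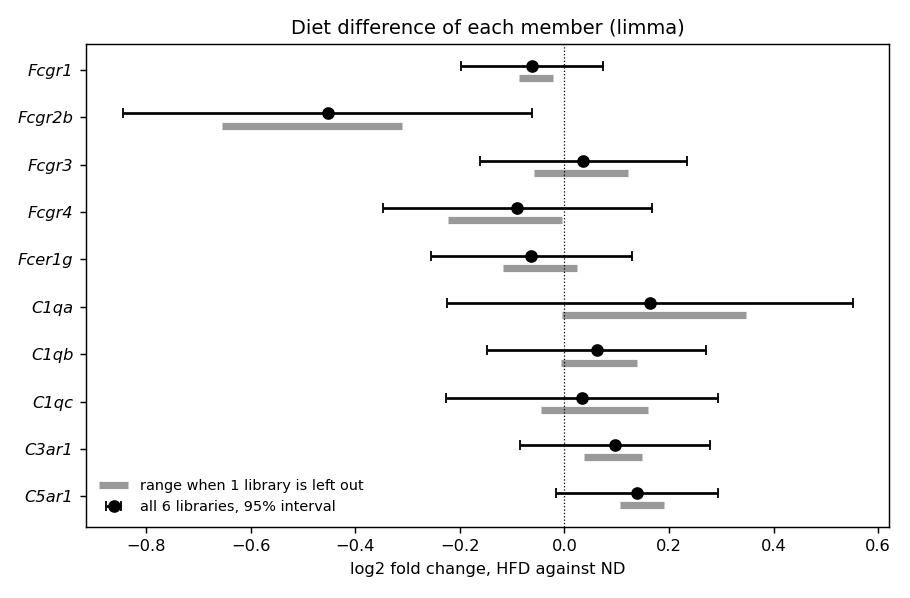
Log2 fold change of HFD against ND for each member on the log2(value + 1) scale. Points and bars give the limma estimate with its 95% interval over 6 libraries, and grey bars the range when 1 library is left out. *Fcgr2b* alone has an interval that excludes 0 (-0.84 to -0.06), before any adjustment for the number of genes.

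Setting a receptor against *Fcgr2b* within a library removes the library's scaling. The log2 ratio of *Fcgr3* to *Fcgr2b* was 2.11, 2.18 and 2.47 in ND and 2.47, 2.73 and 3.03 in HFD. The mean was 2.25 ± 0.19 for ND and 2.74 ± 0.28 for HFD (SD, n = 3), a difference of 0.49 or 1.4 times as much *Fcgr3* per *Fcgr2b*. The diets did not overlap, though ND replicate 3 (2.466) and HFD replicate 1 (2.471) were all but equal. The log2 ratio of *Fcgr4* to *Fcgr2b* was -2.03, -2.04 and -1.83 in ND and -1.76, -1.64 and -1.42 in HFD, a difference of 0.36 with no overlap. For both, the exact two-sided permutation test gave p = 0.1, the smallest possible with 20 assignments, and 0.3 after Benjamini-Hochberg adjustment over the 6 ratios computed. The log2 ratio of *Fcgr1* to *Fcgr2b* was -0.56, -0.60 and 0.01 in ND and -0.24, -0.08 and 0.34 in HFD, a difference of 0.39 with overlapping diets (exact permutation p = 0.3, adjusted 0.6). As the ratios share *Fcgr2b* they are not independent, and of all 13231 other genes 8.95% had a log2 ratio to *Fcgr2b* without overlap of the diets, and 8.83% were so and higher in HFD. Leaving out 1 library at a time, the differences stayed positive, from 0.345 to 0.626 for *Fcgr3*, 0.272 to 0.439 for *Fcgr4* and 0.224 to 0.587 for *Fcgr1*, the last moving by over 1.5 times without ND replicate 3 (0.587) or HFD replicate 3 (0.224).

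**Figure D3:**
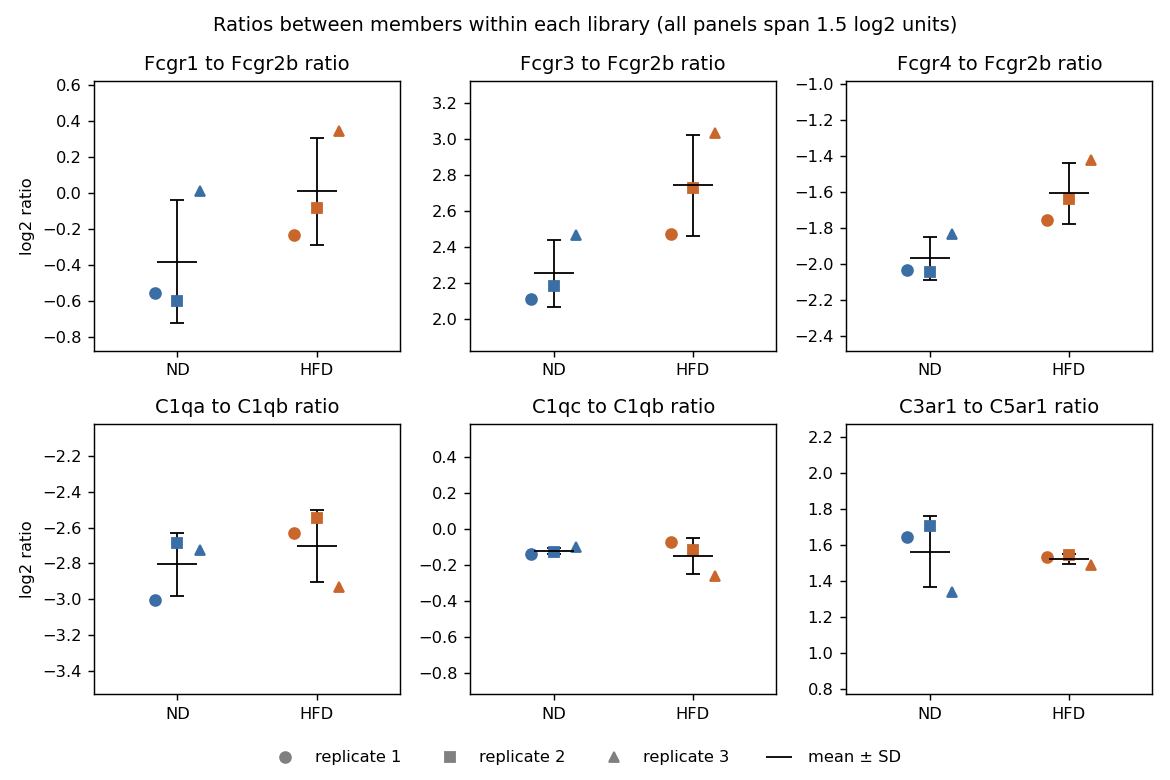
Log2 ratios between members in each library (vertical axes each span 1.5 log2 units), with replicates as symbols, the mean as a bar and the SD as an error bar. The ratios of *Fcgr3* and *Fcgr4* to *Fcgr2b* do not overlap between the diets, while those among C1q subunits and between *C3ar1* and *C5ar1* do.

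Compared per kilobase of each gene's longest principal transcript, the make-up of the IgG receptor transcripts was dominated by *Fcgr3*. Its share of the summed level per kilobase was 81.3%, 82.2% and 82.1% in ND and 83.0%, 84.5% and 85.1% in HFD. The *Fcgr2b* share was 7.14%, 6.88% and 5.65% in ND and 5.69%, 4.85% and 3.94% in HFD, where ND replicate 3 lay just below HFD replicate 1. *Fcgr1* made up 6.87% ± 0.81 in ND and 6.57% ± 0.29 in HFD, and *Fcgr4* 4.70% ± 0.23 and 4.43% ± 0.30 (SD, n = 3 libraries each). *Fcer1g*, at 20368 per kilobase in ND and 19440 in HFD on average, stood above *Fcgr3* (10749 and 10967), the most abundant receptor of the 4. The order from *Fcer1g* through *Fcgr3* down to the other receptors was the same in all 6 libraries, whereas the levels per kilobase of *Fcgr1* and *Fcgr2b* overlapped. These values assume that the principal transcript is the one expressed.

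**Figure D4:**
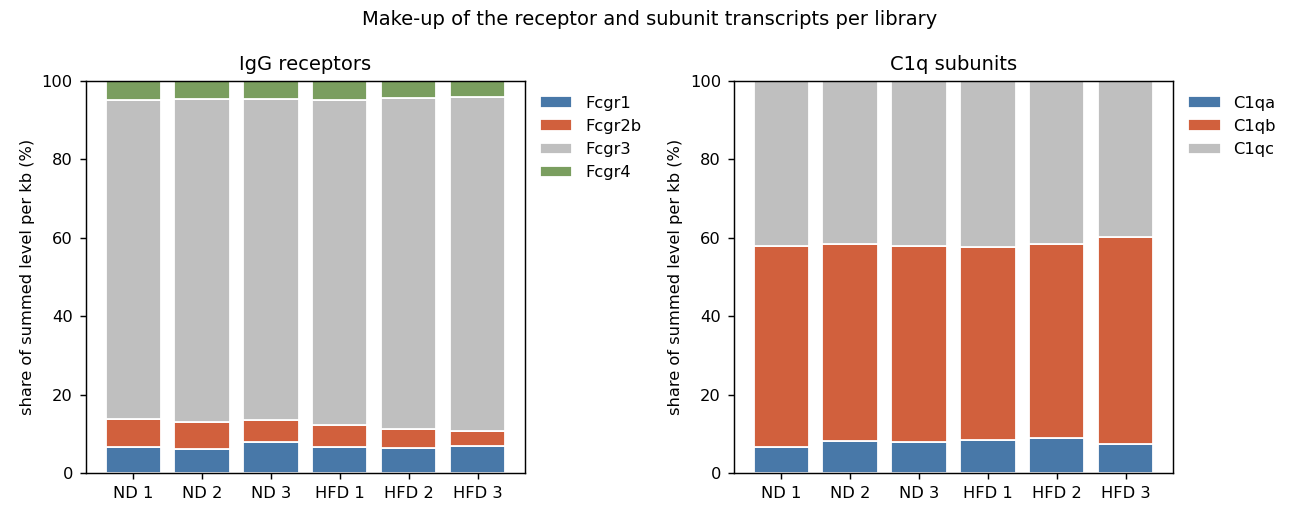
Share of the summed level per kilobase (percent, stacked to 100) of the 4 IgG receptor genes and of the 3 C1q subunit genes in each library. *Fcgr3* takes 81.3% to 85.1% of the receptor total, the *Fcgr2b* share is smallest in HFD replicate 3 (3.94%), and *C1qa* stays at 6.68% to 8.89% of the subunit total.

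The promoter sequences of the IgG receptor genes are shown because the ratios between them showed the widest differences of the set. They are the 250 bases before the transcription start from RefSeq (GRCm38.p6), 5′ to 3′ on the gene's strand, and capitals mark matches, on either strand, to an interferon-gamma activated site (GAS, TTCNNNGAA), an interferon-stimulated response element core (ISRE core, TTTC and TTTC around any 2 bases), a core bound by the macrophage factor PU.1 (GAGGAAG) or a MAF half-site (TGCTGA). For *Fcgr3*, which has more than 1 listed start, the window of the downstream start is shown. The windows of *Fcgr2b* and *Fcgr3* lie within the gene spans given above, so an annotated transcript of each begins further upstream. The sequence before those other starts was not searched.
*Fcgr1*, chr3:96293970-96294219, minus strand: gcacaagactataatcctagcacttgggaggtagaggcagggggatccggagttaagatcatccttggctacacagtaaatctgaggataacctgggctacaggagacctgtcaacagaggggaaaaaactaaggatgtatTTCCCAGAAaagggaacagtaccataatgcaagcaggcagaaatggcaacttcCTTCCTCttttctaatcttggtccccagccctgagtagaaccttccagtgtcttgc
*Fcgr2b*, chr1:170976072-170976321, minus strand: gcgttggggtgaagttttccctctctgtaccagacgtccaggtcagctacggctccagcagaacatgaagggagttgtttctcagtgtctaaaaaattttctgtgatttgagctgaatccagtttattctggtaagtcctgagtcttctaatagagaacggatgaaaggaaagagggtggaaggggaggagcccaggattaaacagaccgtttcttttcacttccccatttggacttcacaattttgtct
*Fcgr3*, chr1:171059395-171059644, minus strand: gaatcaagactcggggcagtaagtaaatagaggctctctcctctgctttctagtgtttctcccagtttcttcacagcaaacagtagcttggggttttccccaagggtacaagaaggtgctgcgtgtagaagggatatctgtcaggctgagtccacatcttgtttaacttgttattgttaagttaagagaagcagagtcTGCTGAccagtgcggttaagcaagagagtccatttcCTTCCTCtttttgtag
*Fcgr4*, chr1:171018676-171018925, plus strand: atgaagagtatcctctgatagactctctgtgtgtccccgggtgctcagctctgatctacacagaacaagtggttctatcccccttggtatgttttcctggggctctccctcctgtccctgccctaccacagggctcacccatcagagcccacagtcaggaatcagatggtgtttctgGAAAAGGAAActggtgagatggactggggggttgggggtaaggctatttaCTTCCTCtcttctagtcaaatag

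In windows of 300 bases (250 before and 50 after the start), available for 9 of the 10 members, the GAS letters occurred in *Fcgr1* only, starting at position -109 from the start, and in 8.11% of 9021 genes of the table with such a window. The ISRE core letters occurred in *Fcgr4* only, at -73, and in 3.97% of those genes. The PU.1 core occurred in *Fcgr1*, *Fcgr3*, *Fcgr4* and *C1qc*, 4 of 9, against 16.2%. The MAF half-site occurred in *Fcgr3*, *C1qb*, *C3ar1* and *C5ar1*, 4 of 9, against 18.1%. No matches of different motifs overlapped in the members' windows, and the *Fcgr2b* window held none of the 4 sets of letters. A match describes the letters only, and a window without one says nothing of the factor.

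The C1q subunit genes lie side by side on chromosome 4 and differed less between the diets than between libraries of a diet. *C1qa* (ENSMUSG00000036887.5, chr4:136895917-136898803, minus strand), the A chain, had normalized levels of 2522, 3838 and 3324 in ND and 3951, 4142 and 2762 in HFD. *C1qb* (ENSMUSG00000036905.8, chr4:136880129-136886187, minus strand), the B chain, had 20240, 24725 and 21960 in ND and 24476, 24211 and 21075 in HFD. *C1qc* (ENSMUSG00000036896.5, chr4:136889804-136893065, minus strand), the C chain, had 18403, 22643 and 20464 in ND and 23301, 22355 and 17559 in HFD. For each of the 3 genes the lowest libraries were ND replicate 1 and HFD replicate 3, ND replicate 3 came next, and the other libraries were the highest. The log2 fold changes were 0.16 (SE 0.17, 95% interval -0.22 to 0.55) for *C1qa*, 0.06 (SE 0.09, -0.15 to 0.27) for *C1qb* and 0.03 (SE 0.12, -0.23 to 0.29) for *C1qc*, with limma adjusted p-values of 0.788, 0.859 and 0.943. All 3 turned sign without ND replicate 1 (-0.004, -0.006 and -0.04), and they were 0.35, 0.13 and 0.16 without HFD replicate 3. *C1qa* had the widest spread of the 3, with an SD of log2 values within a diet of 0.31, against 0.13 for *C1qb* and 0.19 for *C1qc*. Its counting error was 1.70% of the level, well inside that spread.

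Within a library the B and C chain transcripts kept close proportion. The log2 ratio of *C1qc* to *C1qb* was -0.14, -0.13 and -0.10 in ND and -0.07, -0.12 and -0.26 in HFD, a difference of -0.03 (exact permutation p = 0.9). The log2 ratio of *C1qa* to *C1qb* was -3.00, -2.69 and -2.72 in ND and -2.63, -2.55 and -2.93 in HFD, a difference of 0.10 (exact permutation p = 0.5, adjusted 0.75). That difference ran from 0.002 without ND replicate 1 to 0.22 without HFD replicate 3. Of all other genes 8.39% had a log2 ratio to *C1qb* without overlap of the diets. *C1qa* was thus lowest against *C1qb* in the same libraries, ND replicate 1 and HFD replicate 3, in which all 3 genes were low. Per kilobase *C1qa* averaged 3104 in ND and 3479 in HFD, below *C1qb* (20504 and 21373) and *C1qc* (17043 and 17516) in every library. The promoter windows of the B and C chains, with the same motifs in capitals, are shown as those of neighbours that varied together. Part of the *C1qc* window lies within its gene span.
*C1qb*, chr4:136886201-136886450, minus strand: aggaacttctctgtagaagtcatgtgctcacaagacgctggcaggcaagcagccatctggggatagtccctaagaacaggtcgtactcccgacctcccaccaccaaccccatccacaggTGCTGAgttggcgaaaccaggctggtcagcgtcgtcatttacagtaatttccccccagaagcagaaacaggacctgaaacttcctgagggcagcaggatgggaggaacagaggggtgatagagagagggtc
*C1qc*, chr4:136892915-136893164, minus strand: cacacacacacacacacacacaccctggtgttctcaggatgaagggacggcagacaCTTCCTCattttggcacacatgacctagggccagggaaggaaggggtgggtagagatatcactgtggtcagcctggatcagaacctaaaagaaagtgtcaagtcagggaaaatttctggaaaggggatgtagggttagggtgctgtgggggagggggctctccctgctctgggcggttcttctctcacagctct

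The anaphylatoxin receptor genes were both higher in HFD on average, without passing the threshold. *C5ar1* (ENSMUSG00000049130.6, chr7:16246743-16259540, minus strand) had normalized levels of 12253, 12426 and 13776 in ND and 13537, 14239 and 14509 in HFD. ND replicates 1 and 2 lay below every HFD library, and ND replicate 3 lay above HFD replicate 1. Its log2 fold change was 0.14 (SE 0.07, 95% interval -0.02 to 0.29, limma adjusted p 0.536). Without ND replicate 3 it was 0.19 (limma adjusted p 0.171), and it was positive in all 15 alternatives. *C3ar1* (ENSMUSG00000040552.8, chr6:122847138-122856161, minus strand), the most abundant member, had 38281, 40575 and 34781 in ND and 39109, 41545 and 40685 in HFD. Here ND replicate 3 was the lowest library and ND replicate 2 lay among the HFD values. Its log2 fold change was 0.10 (SE 0.08, 95% interval -0.09 to 0.28, limma adjusted p 0.718), and it became 0.04 without ND replicate 3 but 0.15 when ND replicate 2 was left out. The log2 ratio of *C3ar1* to *C5ar1* was 1.64, 1.71 and 1.34 in ND and 1.53, 1.55 and 1.49 in HFD, a difference of -0.04 (exact permutation p = 0.8, adjusted 0.9), where 21.4% of other genes had a ratio to *C5ar1* without overlap. That difference was -0.15 without ND replicate 3 and turned to 0.03 without ND replicate 2.

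Genes that act with the members were counted in lists chosen by function. No gene of any list passed a limma adjusted p of 0.05, as for all genes (0%), and counts below use an unadjusted p under 0.05, which 5.40% of all genes reached upwards and 5.18% downwards, with a median log2 fold change of -0.003. Of 25 activating signalling genes, all measured, 18 were higher and 7 lower in HFD by sign (median 0.045), and 3 reached p under 0.05, all higher. *Fgr*, a Src-family kinase of myeloid cells, had levels of 60.9, 72.4 and 69.7 in ND and 112.6, 160.2 and 104.4 in HFD (log2 fold change 0.86, SE 0.18, limma adjusted p 0.198). For *Fgr* every HFD library lay above every ND library, as for *Src* (0.73, SE 0.20, limma adjusted p 0.284). In all, 7 of the 25 did not overlap, all higher in HFD, where 7.44% of all genes were so higher and 7.07% lower. Among them *Pik3ap1*, *Prkcd*, *Rac1*, *Cdc42* and *Arpc2* had log2 fold changes of 0.05 to 0.20. With array weights 3 of the 25 passed, all higher (4.54% of all genes), namely *Fgr* (1.12, adjusted p 0.00818), *Src* (adjusted p 0.0106) and *Pik3ap1* (0.21, adjusted p 0.0391). Without ND replicate 3, 0 of the 25 passed, and the limma adjusted p-values of these genes were 0.0749, 0.0663 and 0.112. The kinases that phosphorylate and read the activation motif, *Lyn* (0.01) and *Syk* (0.05), and the related adaptor *Tyrobp* (0.07) showed log2 fold changes near 0 with overlapping diets.

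Of 15 inhibitory signalling genes, all measured, 10 were higher and 5 lower (median 0.005), and only *Cd300lf* reached p under 0.05. *Cd300lf*, an inhibitory receptor of myeloid cells, had low levels of 160.6, 169.2 and 116.6 in ND and 85.8, 55.3 and 62.4 in HFD, with no overlap (log2 fold change -1.13, SE 0.20, limma adjusted p 0.153). It passed without ND replicate 3 (-1.29, limma adjusted p 0.0202) and with array weights (-1.35, adjusted p 0.00461). The ubiquitin ligase gene *Cblb* had a log2 fold change of -0.28 (SE 0.13, limma adjusted p 0.510) with overlapping diets, with a range of -0.40 to -0.11 when 1 library was left out, and it passed with array weights (-0.49, adjusted p 0.0288) but not without ND replicate 3 (-0.40, limma adjusted p 0.141). Without ND replicate 3 the adaptor gene *Dok2* passed in the other direction (0.38, limma adjusted p 0.0206, against 0.17 and 0.730 with all libraries), but not with array weights (0.30, adjusted p 0.0868). *Inpp5d*, which encodes SHIP1, the phosphatase recruited by the *Fcgr2b* product, averaged 5886 ± 293 in ND and 5892 ± 344 in HFD (SD, n = 3; log2 fold change 0.001, SE 0.07). Of 11 other Fc receptor genes only 3 were in the table, all lower by sign. *Trim21*, a cytosolic IgG receptor, did not overlap (log2 fold change -0.22, SE 0.08, limma adjusted p 0.361), and *Fcgrt*, the neonatal Fc receptor, did (-0.26, SE 0.16, and -0.42 to -0.05 with 1 library left out).

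**Figure D5:**
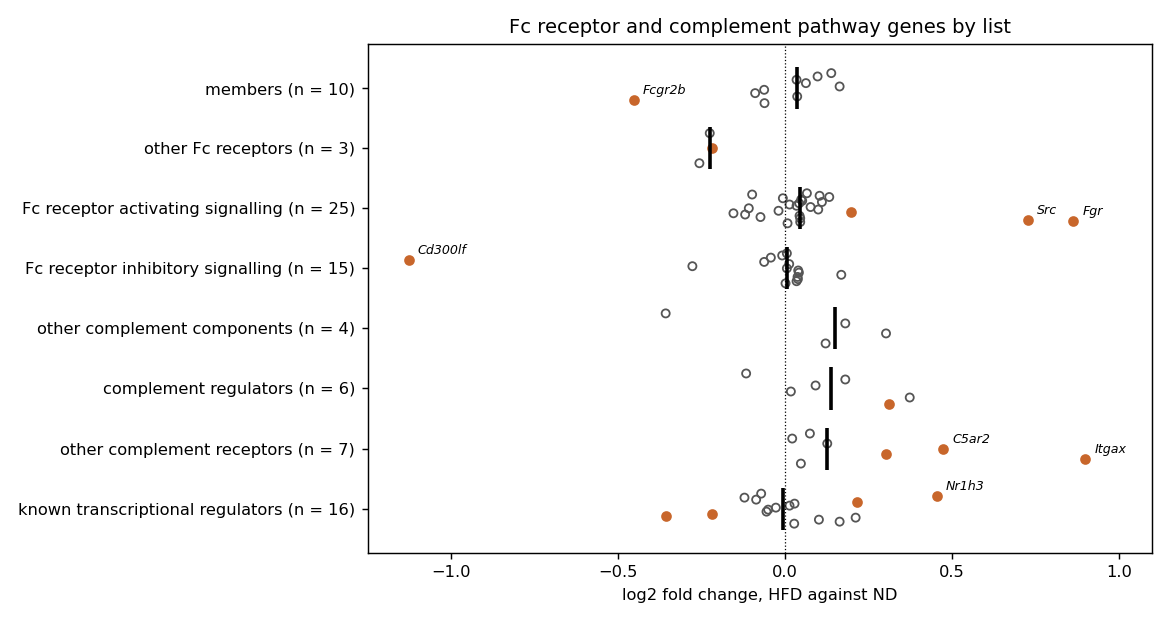
Log2 fold change of HFD against ND for each measured gene of the members and of 7 lists of related genes, with a vertical bar at each list's median. Filled points have an unadjusted limma p under 0.05, and no gene passed the adjusted threshold. The points farthest from 0 are *Cd300lf* (-1.13), *Itgax* (0.90) and *Fgr* (0.86).

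Most complement genes were outside the table: 4 of 23 other components, 6 of 13 regulators and 7 of 10 other receptors were measured. All 7 other receptors, *Calr*, *Lrp1* and *Cmklr1* among them, were higher in HFD by sign (median 0.13), and 3 reached p under 0.05. With 1 library left out *Lrp1* (log2 fold change 0.02) ran from -0.04 to 0.06 and *Cmklr1* (0.07) from -0.08 to 0.27. *C5ar2*, the second C5a receptor, had levels of 539.8, 619.9 and 618.0 in ND and 829.1, 825.9 and 810.9 in HFD, a gap wider than the spread of either diet. Its log2 fold change was 0.47 (SE 0.08, limma adjusted p 0.118), and it passed without ND replicate 3 (0.51, limma adjusted p 0.0216) and with array weights (0.53, adjusted p 0.00461). *Itgax*, the alpha chain of complement receptor 4 and also a dendritic cell gene, had 1138, 1172 and 2131 in ND and 2072, 2899 and 3071 in HFD, with ND replicate 3 again inside the HFD range (log2 fold change 0.90, SE 0.23, limma adjusted p 0.270). It passed without that library (1.19, limma adjusted p 0.0127), as did *Itgb2*, the shared beta chain (0.30, SE 0.09, limma adjusted p 0.319 with all libraries, and 0.40, adjusted p 0.0322 without it). With array weights *Itgax* (1.14, adjusted p 0.0063) and *Itgb2* (0.40, adjusted p 0.0123) passed too. *Itgam*, the alpha chain of complement receptor 3, differed little (0.05, SE 0.06). Of the 7 dendritic cell markers listed none was in the table. Among regulators *Cd59a*, a membrane inhibitor, had a log2 fold change of 0.37 (SE 0.21) with overlapping diets, and of 0.16 to 0.54 with 1 library left out. Of the components, *C3* (0.30, SE 0.17) and *Fcna*, a lectin pathway recognition gene (-0.36, SE 0.19), also overlapped, with ranges of 0.15 to 0.48 and -0.52 to -0.23 when 1 library was left out. The complement receptor *Vsig4* was not in the table.

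Of 16 transcription factors and receptors known to act on these genes, all measured, 8 were higher and 8 lower (median -0.008), with 2 past an unadjusted p of 0.05 in each direction. *Maf* had levels of 16336, 16911 and 13970 in ND and 14084, 12051 and 10853 in HFD (log2 fold change -0.36, SE 0.11, limma adjusted p 0.305). As for *Fcgr2b*, HFD replicate 3 was the lowest and ND replicate 3 lay below HFD replicate 1. *Irf8* stood at -0.03 (SE 0.07), and at -0.09 to 0.05 with 1 library left out. *Nr1h3*, the oxysterol receptor LXR alpha, was at 0.45 (SE 0.11, limma adjusted p 0.238) with no overlap. Without ND replicate 3 none of these 16 genes passed (1.76% of all genes did), and with array weights 6 did, 4 higher and 2 lower (8.56% of all genes).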

How the data were processed

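The deposited table holds a signal per gene: counts scaled by the authors with 1 size factor per library, as read from the values. In each library 57.1% to 58.4% of values between 5 and 1000 were whole multiples of the value of 1 read (within 0.02 of a read), so whole reads could not be recovered for all genes and no count test was run. STAR, Partek and the build mm10 are named in the submitters' processing notes, without versions, and the counting step is not given in the sources used here. Per the labels' protocols, 100 ng of RNA was depleted of ribosomal RNA for each stranded library, read as single 75-base ends.

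The column heads write NC for the diet taken here as normal, and the number after their first hyphen was taken as the replicate. The table lists genes down to a mean of 3.36, so low genes were not measured here. Each log2(value + 1) was compared between diets with limma 3.58.1 in R 4.3.3 (mean-variance trend, two-sided), and p-values were adjusted over 13232 genes. The SE beside a fold change is limma's, after moderation. This fold scale understates changes of low genes. Counting error is from reads without molecular identifiers and covers counting only. Ratios were compared by exact permutation over libraries. The limma fit was tested on simulated data, with genes drawn independently and no shift shared within a library. That test did not cover the permutation of ratios, and its recovery of changes as small as those of the members is not reported here.

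Members, gene lists and ratios were chosen with earlier results of these data known. Named genes were all members, the 2 genes with the smallest p of each list, and *Vsig4*, *C3*, *Itgam*, *Itgb2*, *Syk*, *Inpp5d*, *Lyn*, *Irf8* and *Tyrobp*, and others were chosen after their values were seen. Some genes that this rule names are not reported here. Coordinates are from GENCODE M21 (GRCm38, the same assembly as mm10), and shared stretches of 75 bases were counted in its transcripts. Planned protein motifs were not searched, as no protein sequences were used here. Pairs of libraries differed by at least 10.3 times the counting variance, so none was present in duplicate.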

Additional observations from a re-analysis of the deposited data

How the results depend on the processing

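Against 0 genes past the adjusted limma threshold (1401 unadjusted), 1133 passed with array weights and 31 with the replicate block. Leaving out 1 library gave 0 to 233 genes, with 233 lacking ND replicate 3, 2 lacking HFD replicate 1 and 1 lacking ND replicate 2. Residuals of libraries with the same number correlated at 0.089, -0.11 and 0.027, and the numbers were not taken as pairs. The count of 0 members became 1, *Fcgr2b* (-0.539), with array weights only, and was 0 with the replicate block and without any 1 library. Of 150 alternative values of the members' log2 fold changes 139 stayed on the same side of 0 and of the threshold, 1 newly passed and 10 changed sign. These were *Fcgr3* (-0.00396 after quantile normalization, -0.0578 without ND replicate 3), *Fcer1g* (0.0237 without ND replicate 2), *C1qa* (-0.00389 without ND replicate 1), *C1qb* (-0.0624 after quantile normalization, -0.00624 without ND replicate 1) and *C1qc* (-0.044 after quantile normalization, -0.0417 without ND replicate 1, -0.0443 and -0.0144 without HFD replicates 1 and 2). With 1 library left out the values ran up to 0.122 for *Fcgr3*, down to -0.117 for *Fcer1g*, and up to 0.347, 0.138 and 0.16 for *C1qa*, *C1qb* and *C1qc*. Array weights gave 0.409, 0.141 and 0.144 for these 3 genes, -0.102 for *Fcgr1*, 0.0014 for *Fcgr3* and -0.163 for *Fcgr4*. Quantile normalization gave -0.119 for *Fcer1g*, 0.0264 for *C3ar1* and 0.0823 for *C5ar1*. The cause of these changes was not tested. The differences of the 3 ratios to *Fcgr2b* stayed positive in every alternative run, while *C1qa* to *C1qb* ran from 0.00235 to 0.216, *C1qc* to *C1qb* from -0.0672 to 0.029 and *C3ar1* to *C5ar1* from -0.154 to 0.0312. The replicate block leaves the mean of a ratio unchanged by construction. With 3 libraries per diet no ratio can give an exact p under 0.1.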

Other observations

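The small nuclear RNA gene *Gm26110* lies within *Fcgr4* on the same strand and shares no 75-base stretch with the *Fcgr4* transcript. It was looked at because of that position, and its values were seen before it was chosen. Its normalized levels were 560.0, 589.1 and 609.7 under ND against 460.7, 491.1 and 341.8 under HFD, in replicate order, with no overlap of the diets (log2 fold change -0.46, SE 0.13, limma adjusted p 0.284). With 1 library left out the log2 fold change ran from -0.56 to -0.30. The host gene overlapped between the diets, and in ND replicate 3 it had its lowest level where *Gm26110* had its highest. Reads of small nuclear RNA genes can be shared between copies, and their assignment was not checked here.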
